A study of Mus musculus with 10 samples.

Results

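Glucocorticoid signalling in the lung was followed through 9 genes of the 54532 in the deposited table, namely the receptor genes Nr3c1 and Nr3c2, the steroid-activating enzyme gene Hsd11b1, and the classic target genes Fkbp5, Tsc22d3, Zbtb16, Sgk1, Klf9 and Errfi1. The genes were picked by name, and this choice was made with their difference between the groups already known. The values that compare the IncPBF group with the sham group are therefore a description of these genes and carry no test. All 9 genes had a mean of at least 0.5 FPKM, the filter for entering the comparison, and were among the 15388 genes tested.

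The lungs came from wild-type C57/BL6 pups that were operated on at postnatal day (P) 7 and killed at P14, 5 with IncPBF (increased pulmonary blood flow) and 5 sham-operated. In the IncPBF group a needle was passed from the abdominal aorta into the inferior vena cava, which leaves a shunt between artery and vein. In the sham group the abdomen was opened under the same isoflurane anaesthesia and the puncture was omitted, so both groups shared anaesthesia and laparotomy. Lung tissue was profiled by bulk RNA-sequencing, in which a lower value can come from fewer cells of a type or from less RNA per cell, and these cannot be told apart. The labels give neither the sex of the pups, nor the litter, nor the time of day at which a lung was taken, and neither plasma corticosterone nor receptor protein was part of the table.

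Corticosterone, the main glucocorticoid of mice, enters cells and binds the glucocorticoid receptor, which is held ready in the cytoplasm by heat shock proteins and their partners. The loaded receptor moves to the nucleus and binds DNA at the glucocorticoid response element, a palindrome made of paired hexamers, where it switches on some genes and restrains others, many of them inflammatory. In the perinatal lung this pathway is known for thinning the septa between alveoli and for driving surfactant and sodium channel production. The mineralocorticoid receptor binds the same hormone and the same elements, and enzymes in the tissue interconvert active and inactive steroid.

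The promoters of the genes were searched for the DNA letters that the receptor is known to bind. RefSeq promoter windows on build GRCm38.p6, each reaching from 250 bases before a transcript start to 50 bases after it, were found for 7 of the 9 genes, 15 windows in all. Nr3c1 and Zbtb16 had no entry. Each window was searched on both strands for the receptor's hexamer AGAACA and for the full element, in which the hexamer, a spacer of any 3 letters and the hexamer's reverse complement follow each other, so that each full element contains 2 hexamers. The full element occurred in 3 of 32851 promoter windows (0.00913%), and 1 of these 3 belonged to Sgk1. The hexamer, on its own or in a full element, occurred in 6233 windows (19.0%), and in 4 of the 15 windows of these genes.
Of the 6 windows of Sgk1, 3 held a hexamer and 1 of these the full element. The window with the full element lies at chr10:21993640-21993939 on the plus strand, inside the long annotated span of the gene and before the start of a shorter coding transcript. Capitals mark the element, whose first base is 189 and whose last is 175 bases before the start. A further hexamer in lower case begins 242 bases before the start. The window is shown because Sgk1 is the target gene that did not fall.
Sgk1: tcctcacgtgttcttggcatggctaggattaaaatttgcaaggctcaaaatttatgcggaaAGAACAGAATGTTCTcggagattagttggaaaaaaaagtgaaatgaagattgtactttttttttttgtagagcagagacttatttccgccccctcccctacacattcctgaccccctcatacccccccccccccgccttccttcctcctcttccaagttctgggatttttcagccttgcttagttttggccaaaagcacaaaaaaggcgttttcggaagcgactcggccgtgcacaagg
Of the 3 windows of Tsc22d3, 1 held a hexamer and the others none. It lies at chrX:140600473-140600772 on the minus strand, and capitals mark the hexamer, 185 to 180 bases before the RefSeq start, within 50 bases of which 0 GENCODE transcripts begin.
Tsc22d3: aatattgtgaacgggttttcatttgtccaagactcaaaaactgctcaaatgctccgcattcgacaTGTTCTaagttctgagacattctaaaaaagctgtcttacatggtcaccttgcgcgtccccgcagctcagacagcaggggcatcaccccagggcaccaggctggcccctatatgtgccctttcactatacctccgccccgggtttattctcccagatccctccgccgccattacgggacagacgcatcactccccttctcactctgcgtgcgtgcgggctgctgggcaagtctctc
The window of Fkbp5, at chr17:28486100-28486399 on the minus strand, held neither motif and is given for comparison, as the gene with the second largest fall of the 9.
Fkbp5: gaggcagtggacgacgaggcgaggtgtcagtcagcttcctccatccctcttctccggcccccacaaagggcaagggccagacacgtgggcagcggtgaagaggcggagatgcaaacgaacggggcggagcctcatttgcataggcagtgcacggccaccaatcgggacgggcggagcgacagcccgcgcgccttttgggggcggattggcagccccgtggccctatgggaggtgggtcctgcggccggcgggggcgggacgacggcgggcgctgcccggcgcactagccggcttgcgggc
No hexamer was found in the windows of Hsd11b1, Klf9, Errfi1 and Nr3c2, which says only that these letters are absent from these 300 bases. A match is a description of the letters and not a binding site. The target genes are also known for response elements far from their starts, outside these windows.

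In the IncPBF lungs, 6 of the 9 genes were lower than in the sham lungs and 3 were not called. Of the latter, the receptors were near the sham level and Sgk1 was somewhat higher. Zbtb16 was 41.4-fold lower, Fkbp5 6.64-fold, Tsc22d3 3.10-fold, Klf9 2.63-fold, Hsd11b1 2.18-fold and Errfi1 1.53-fold, as ratios of the mean FPKM. Of the 15388 genes tested with limma on log2(FPKM + 0.1), 16.2% were called lower and 16.1% higher at a Benjamini-Hochberg adjusted threshold of 0.05. Of the 9 genes, 6 were called lower and 0 higher. In the same 6 genes the highest IncPBF lung was below the lowest sham lung, an arrangement seen in 11.2% of all tested genes (12.0% for the opposite one). Since the genes were chosen on this contrast, nothing is read from these shares. Ordered from the largest fall among the 15388 genes, Zbtb16 stood at place 3, Fkbp5 at 17, Tsc22d3 at 79, Klf9 at 129, Hsd11b1 at 208 and Errfi1 at 908. Just outside the called genes, Sgk1 was higher by 0.33 on the log2 scale. Errfi1, with a log2 difference of -0.57, was the smallest change just inside.

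**Figure D1:**
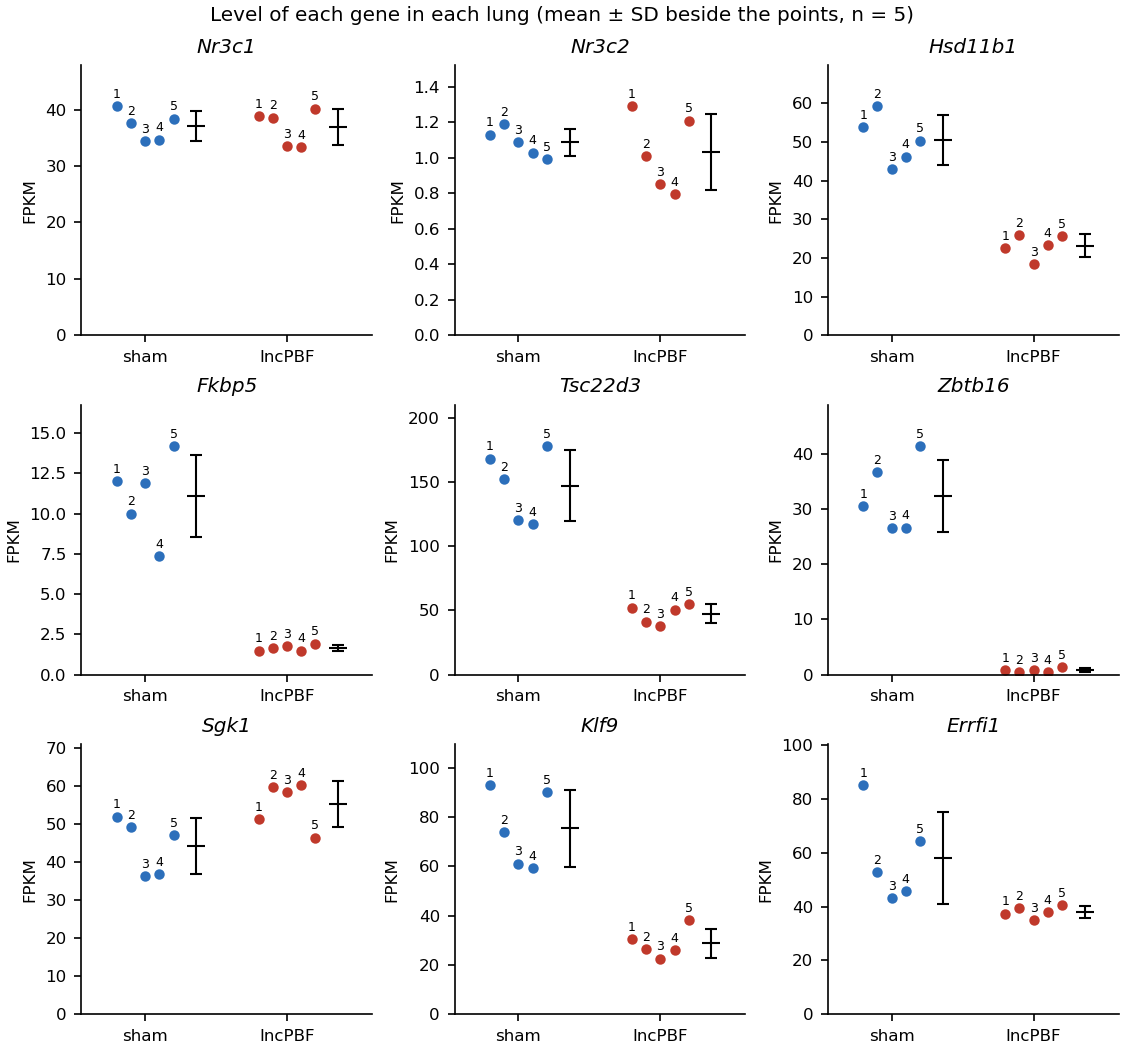
FPKM of the 9 genes (vertical axis, from 0) in each of the 5 sham lungs (blue) and 5 IncPBF lungs (red), numbered as in the text, with the mean ± SD of the group in black. The groups are separate in Hsd11b1, Fkbp5, Tsc22d3, Zbtb16, Klf9 and Errfi1 and overlap in Nr3c1, Nr3c2 and Sgk1.

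The IncPBF lungs were not matched to the sham lungs in sex-linked expression, and this touches every difference given here. Xist, the RNA of the inactive X chromosome of females, measured 52.4 to 66.5 FPKM in IncPBF lungs 2 to 5 and at most 0.077 FPKM in IncPBF lung 1 and in the sham lungs, where Y-linked genes were expressed instead. For lungs 2 to 5 the operation and sex cannot be told apart. IncPBF lung 1 is the one lung of its group that matches the sham lungs, and its values are given beside the others below. The fragments counted on genes per lung ran from 16103423 to 20318525 with IncPBF and from 18171494 to 19400575 after sham surgery. With the lungs rescaled to an equal total of fragments on genes, the split over all genes was 1782 lower and 3559 higher in place of 2490 and 2480, and the median difference of all genes was 0.0922 on the log2 scale in place of 0.0145.

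Nr3c1 encodes the glucocorticoid receptor itself (ENSMUSG00000024431, chr18:39410545-39491301 in the table, minus strand). It measured 38.9, 38.6, 33.5, 33.4 and 40.2 FPKM in IncPBF lungs 1 to 5. In sham lungs 1 to 5 it measured 40.6, 37.6, 34.4, 34.7 and 38.4 FPKM. The lungs of both groups were mixed, with means of 36.9 ± 3.23 and 37.1 ± 2.63 FPKM (SD, n = 5). The log2 difference was -0.01 with a standard error of 0.07 and a 95% interval from -0.17 to 0.15. The values rest on 4278 to 6191 fragments per IncPBF lung and 4805 to 5417 per sham lung.

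Nr3c2, the gene of the mineralocorticoid receptor (chr8:76899442-77245012), was expressed at a far lower level. It measured 1.29, 1.01, 0.853, 0.797 and 1.21 FPKM in IncPBF lungs 1 to 5, where sham lungs 1 to 5 had 1.13, 1.19, 1.09, 1.03 and 0.994 FPKM. The IncPBF values surrounded the sham values on both sides, and the coefficient of variation was 21.1% with IncPBF and 7.2% after sham surgery. The log2 difference was -0.09 (standard error 0.15, 95% interval -0.41 to 0.24), from 89 to 163 fragments per lung over all lungs. IncPBF lung 1 was above every sham lung and its log2 difference to their mean was 0.24, against -0.17 for lungs 2 to 5, so the direction for this receptor depended on which lungs were used. The ratio of Nr3c1 to Nr3c2 in FPKM, which is per length, ranged from 30.1 to 41.9 in the IncPBF lungs and overlapped that of the sham lungs, 31.5 to 38.7.

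Around the receptor, most genes of the chaperone machinery were not called. Of 13 chaperone genes tested, 3 rose and 1 fell (limma), with a median log2 difference of 0.05 beside 0.014 over all genes. Over all genes tested 16.2% were called lower and 16.1% higher, and these shares stand beside every list count below. Fkbp4, the immunophilin that carries the receptor to the nucleus and whose place Fkbp5 can take, had means of 56.2 ± 2.81 FPKM with IncPBF and 54.7 ± 4.3 FPKM after sham surgery. The heat shock protein genes Hsp90aa1 and Hsp90ab1 had log2 differences of 0.05 and -0.04, with standard errors of 0.08 and 0.06, and were not called. Ptges3, which encodes the cochaperone p23, rose by 0.40 on the log2 scale (limma, adjusted p = 0.0111), and Stip1, which links the heat shock proteins Hsp70 and Hsp90, by 0.25 (limma, adjusted p = 0.00249). Ppp5c, a phosphatase bound to the same complex, fell by 0.15 (limma, adjusted p = 0.041), a call that ended when any one of IncPBF lungs 1, 2, 4 and 5 or sham lungs 2, 3 and 5 was left out. With IncPBF lung 1 as the one IncPBF lung, 0 of the 13 were called in either direction (limma, with 2 higher at an unadjusted p of 0.05).

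Of 13 receptor coregulator genes, 4 fell and 1 rose, beside 16.2% and 16.1% of all genes tested. Their median log2 difference was -0.22. Ncoa3, a coactivator, fell by 0.41 (limma, adjusted p = 0.00533), and Ep300, a histone acetyltransferase, by 0.39 (limma, adjusted p = 0.0159). Hdac2, a histone deacetylase that the receptor uses to restrain inflammatory genes, rose by 0.31 (limma, adjusted p = 0.00665). The count of falls was 2 without IncPBF lung 1, 2 or 4 or without sham lung 1 or 5, and the count of rises was 2 without sham lung 5.

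The enzymes that set the local supply of active steroid showed opposite differences. Hsd11b1 regenerates corticosterone from its inactive 11-keto form inside cells and was one of the 6 genes that were lower. It measured 22.5, 25.8, 18.4, 23.3 and 25.6 FPKM in IncPBF lungs 1 to 5 and 53.9, 59.2, 43.0, 46.2 and 50.3 FPKM in sham lungs 1 to 5 (chr1:193221634-193264075). The highest IncPBF lung was well below the lowest sham lung, and the log2 difference was -1.12 with a standard error of 0.11. Its fragments numbered 1445 to 2264 per IncPBF lung and 3443 to 4739 per sham lung. In IncPBF lung 1 the log2 difference to the sham mean was -1.16, inside the range of the other IncPBF lungs in FPKM.

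H6pd, which makes the NADPH that Hsd11b1 needs for this reaction, fell by 0.78 on the log2 scale, from 58.7 ± 9.42 to 33.9 ± 3.43 FPKM (limma, adjusted p = 0.000474). Hsd11b2, which inactivates corticosterone, rose by 0.49, from 5.55 ± 1.00 to 7.76 ± 0.411 FPKM (limma, adjusted p = 0.00921), and its groups did not overlap. The ratio of Hsd11b1 to Hsd11b2 in FPKM was 6.8 to 14 in the sham lungs and 2.29 to 3.55 in the IncPBF lungs. Abcb1a, an efflux pump that exports steroids, fell by 0.74 (limma, adjusted p = 0.00259). In IncPBF lung 1 H6pd measured 34.2 FPKM and Abcb1a 7.94, below the lowest sham lungs at 48.9 and 9.4 FPKM. Hsd11b2 measured 7.45 FPKM in that lung, where the highest sham lung had 6.32. Of the 15 genes listed for steroid supply only 5 passed the filter, with 2 called lower and 1 higher. The other 10, mostly genes of steroid synthesis and of the pituitary axis, had group means from 0 to 0.369 FPKM, and 2 of them had no fragment in any lung, which allows up to 3 fragments per lung. Serpina6, the binding globulin of corticosterone made in the liver, was among them with mean levels of 0.067 (IncPBF) and 0.0422 FPKM (sham).

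Fkbp5 encodes an immunophilin that lowers the receptor's affinity for hormone and is itself induced by it, a short negative feedback (chr17:28399094-28517527). It measured 1.5, 1.65, 1.78, 1.49 and 1.93 FPKM in IncPBF lungs 1 to 5. The sham lungs measured 12.0, 9.99, 11.9, 7.35 and 14.2 FPKM. The IncPBF lungs were tightly grouped, with a coefficient of variation of 11.3% beside 23.1% in the sham lungs, and the log2 difference was -2.63 with a standard error of 0.15. The depth was 243 to 379 fragments per IncPBF lung and 1330 to 2337 per sham lung. The log2 difference to the sham mean was -2.78 for IncPBF lung 1 and -2.60 for lungs 2 to 5.

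Zbtb16, a zinc finger transcription factor that is among the most strongly hormone-induced genes in many tissues, was the gene that differed most (chr9:48654297-48836222). It measured 0.842, 0.475, 0.799, 0.439 and 1.36 FPKM in IncPBF lungs 1 to 5, and 30.5, 36.7, 26.5, 26.6 and 41.4 FPKM in sham lungs 1 to 5. The IncPBF values rest on 40 to 149 fragments per lung and the sham values on 2639 to 3809. Relative to its mean it also varied most among the IncPBF lungs (47.3%), where lung 5 was 3.1 times lung 4. The log2 difference was -5.28 with a standard error of 0.25, and it was -5.08 for IncPBF lung 1 alone. With 1 in place of 0.1 added to FPKM it was -4.23, since the added constant is of the size of the IncPBF values. Zbtb16 also marks innate-like T cells, and of the 5 genes listed for these and for NK cells only 2 passed the filter and 0 were called, with summed levels of 2.55 to 8.85 FPKM (IncPBF) and 2.14 to 5.41 FPKM (sham).

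Tsc22d3, known as the glucocorticoid-induced leucine zipper GILZ, mediates part of the anti-inflammatory action of the hormone (chrX:140539528-140600659). In IncPBF lungs 1 to 5 it measured 52.2, 41.2, 37.9, 50.6 and 55.1 FPKM, and in sham lungs 1 to 5 it measured 168, 152, 120, 117 and 178 FPKM. The highest IncPBF lung, lung 5, was far below the lowest sham lung, lung 4, and the log2 difference was -1.63 (standard error 0.14). The gene lies on the X chromosome. In IncPBF lung 1, which matches the sham lungs in Xist, the log2 difference was -1.47, and in lungs 2 to 5 it was -1.66.

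Klf9, a Krüppel-like transcription factor that responds to glucocorticoid and thyroid hormone (chr19:23141226-23166911), measured 30.4, 26.5, 22.5, 26.0 and 38.2 FPKM in the IncPBF lungs. In the sham lungs it measured 92.9, 74.0, 61.1, 59.4 and 90.1 FPKM. The spread relative to the mean was the same in both groups, at 20.8%, and the groups stayed apart, with a log2 difference of -1.39 (standard error 0.16). Errfi1, a feedback inhibitor of the EGF receptor (chr4:150853919-150868892), measured 37.4, 39.5, 34.9, 37.9 and 40.6 FPKM in IncPBF lungs 1 to 5, against 85.1, 52.9, 43.1, 45.7 and 64.4 FPKM in sham lungs 1 to 5. Here the groups were close, since sham lung 3 exceeded the highest IncPBF lung by little, and the mean of the sham group was raised by sham lungs 1 and 5. The coefficient of variation was 29.4% after sham surgery and 5.67% with IncPBF. The log2 difference of -0.57 (standard error 0.16) ranged from -0.66 to -0.42 when single lungs were left out.

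Sgk1, a kinase that raises the number of epithelial sodium channels at the cell surface and that both receptors induce, did not follow the other targets (chr10:21882184-21999903). It measured 51.2, 59.6, 58.3, 60.1 and 46.4 FPKM in IncPBF lungs 1 to 5, against 51.9, 49.1, 36.3, 36.7 and 47.0 FPKM in sham lungs 1 to 5. IncPBF lungs 2, 3 and 4 were above every sham lung and lungs 1 and 5 were inside the sham range. The log2 difference was 0.33 (standard error 0.12, 95% interval 0.07 to 0.58), and the gene was not called over all genes. It kept a positive sign in all 21 alternative settings, from 0.23 to 0.41. This is the gene whose promoter window carries the full response element printed above.

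**Figure D2:**
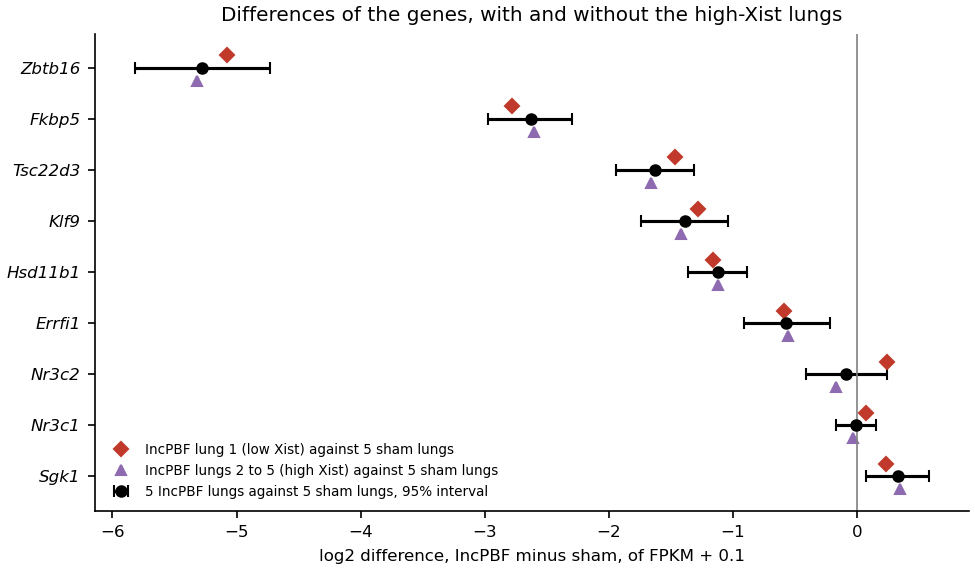
Log2 difference of FPKM + 0.1, IncPBF minus sham (horizontal axis), for the 9 genes: black, all lungs with the 95% interval; red diamonds, IncPBF lung 1, the one with low Xist; purple triangles, IncPBF lungs 2 to 5. In the 6 genes that were lower both partial values are below 0, from -5.08 and -5.32 in Zbtb16 to -0.59 and -0.56 in Errfi1.

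In the sham lungs the order of levels per length was Tsc22d3 (147 ± 27.7 FPKM), Klf9 (75.5 ± 15.7), Errfi1 (58.2 ± 17.1), Hsd11b1 (50.5 ± 6.34), Sgk1 (44.2 ± 7.25), Nr3c1 (37.1 ± 2.63), Zbtb16 (32.4 ± 6.54), Fkbp5 (11.1 ± 2.56) and Nr3c2 (1.09 ± 0.0781), each as mean ± SD of 5 lungs. Tsc22d3, Fkbp5 and Nr3c2 did not overlap with their neighbours in this order, while neighbours from Klf9 down to Zbtb16 did. In the IncPBF lungs Sgk1 came first (55.1 ± 6.05 FPKM), ahead of Tsc22d3 (47.4 ± 7.41), although only 3 of 5 lungs had Sgk1 above Tsc22d3. Zbtb16 came last in the IncPBF lungs (0.783 ± 0.37), below Nr3c2 (1.03 ± 0.218) in 4 of 5 lungs. Among the 15388 genes tested, 90.1% had a lower mean than Zbtb16 in the sham group and 7.79% in the IncPBF group. For Fkbp5 these shares were 69.1% and 21.3%, and for Nr3c1 91.5% and 91.7%.

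Other genes known to be induced by glucocorticoids were mostly lower as well. The list held 34 genes beside the 9, written with earlier results of these data known, and 33 were tested. Of these, 24 fell, 0 rose and 9 were not called (limma), with a median log2 difference of -0.80. No gene of the list was higher at an unadjusted p of 0.05 (0 genes) or by limma-voom on the recovered fragments (0 genes). Leaving out the genes whose values were already known, 21 of 30 fell. With log2 Xist as a covariate 14 of the 33 were called lower, and with IncPBF lung 1 as the one IncPBF lung 5 were, while 31 of the 33 were below 0 in that lung with a median of -0.80. Beside the background of 16.2% of genes called lower this share is a description and no test of the list.

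The 5 largest falls in the list were those of Serpina3n, Hif3a, Fam107a, Pdk4 and Klf15. Serpina3n, a secreted protease inhibitor, went from 39.0 ± 7.05 FPKM in the sham group to 2.92 ± 0.506 in the IncPBF group, a log2 difference of -3.69 (limma, adjusted p = 4.44e-07). Hif3a, a hypoxia-inducible factor subunit that opposes the others, went from 7.08 ± 1.56 to 0.627 ± 0.299 FPKM, a log2 difference of -3.36 (limma, adjusted p = 7.24e-06). Fam107a, an actin-binding stress response gene, had a log2 difference of -2.50, and Pdk4, the kinase that shuts off pyruvate dehydrogenase in fasting, one of -2.28. Klf15, a partner of the receptor in metabolic gene control, had one of -2.07. In each of these 5 genes every IncPBF lung was below every sham lung, an arrangement seen in 11.2% of all tested genes. The 5 were picked as the largest falls, so nothing is read from this. IncPBF lung 1 was within the range of the other IncPBF lungs in each of the 5.

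Among the targets named whatever their value, Cebpd, a transcription factor of the acute phase, fell by 1.05 on the log2 scale (limma, adjusted p = 4.99e-05). Per1, the clock gene with a known response element, fell by 0.60 (limma, adjusted p = 0.0355), with overlapping groups, and IncPBF lung 1 was inside the sham range at 24.6 FPKM. Its call ended without IncPBF lung 3 or without sham lung 1, 2 or 5. Dusp1, a phosphatase that switches off MAP kinases, had means of 67.0 ± 20.4 FPKM with IncPBF and 58.6 ± 17.9 FPKM after sham surgery and was not called. Ddit4, an inhibitor of mTOR induced by stress, measured 16.2 ± 2.18 and 24.2 ± 8.33 FPKM and was not called with all lungs (limma, adjusted p = 0.0784), though it was called lower without sham lung 3.

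Of the inflammatory genes that glucocorticoids restrain, those tested were called in both directions and most were not called. Of 20 such genes 10 passed the filter, of which 2 rose and 1 fell, with a median log2 difference of 0.07. Over all genes tested 16.1% rose and 16.2% fell, so nothing is read from these counts. Il1b, the cytokine interleukin-1 beta, rose by 1.31 on the log2 scale, from 0.700 ± 0.246 to 1.89 ± 0.584 FPKM (limma, adjusted p = 0.00289). Mmp9 rose by 0.44 (limma, adjusted p = 0.0294) and Mmp13 fell by 1.05 (limma, adjusted p = 0.00294), both of them matrix-cutting enzymes. The call of Mmp9 ended without IncPBF lung 1, 2 or 4 or without sham lung 2 or 5. The count of falls was 2 without sham lung 3. The other 10 genes of the list were under the filter, with group means up to 0.496 FPKM and at most 32 fragments in a lung, and were not tested. In 9 of these 10 the mean was higher in the IncPBF group. The same share over all genes under the filter was not computed, and some of the 10 had at most 3 fragments in any lung. Nothing is read from this count. In 1 of the 10, the neutrophil chemokine gene Cxcl1, named after its values were seen, the groups did not overlap. It measured 0.193 to 0.514 FPKM (7 to 20 fragments) in IncPBF and 0.0594 to 0.167 FPKM (2 to 6 fragments) in sham lungs.

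Genes that respond to the mineralocorticoid receptor, most of them of sodium transport, were mostly lower, in contrast to Sgk1. Of 12 genes tested, 9 fell and 1 rose, beside 16.2% and 16.1% of all genes, with a median log2 difference of -0.51. Per1 and Usp2, 2 of the 12, are also on the list of induced targets, and Per1 is on the circadian clock list below too. Scnn1a, the alpha subunit of the epithelial sodium channel that clears fluid from the air spaces, fell by 1.20, from 75.3 ± 10.1 to 32.6 ± 2.76 FPKM (limma, adjusted p = 1.38e-05). Atp1b1, the beta subunit of the sodium pump, fell by 0.93 (limma, adjusted p = 4.56e-05). Stk39, a kinase that activates sodium-chloride cotransport, rose by 0.38 (limma, adjusted p = 0.00129). Lung maturation genes, known to be driven by antenatal glucocorticoid, fell in 8 of 12 cases with 0 rises (limma, and 0 at an unadjusted p of 0.05 or by limma-voom) and a median log2 difference of -0.35. With log2 Xist as a covariate 4 of the 12 mineralocorticoid targets and 0 of the 12 maturation genes were called lower. With IncPBF lung 1 as the one IncPBF lung the median log2 differences of these lists were -0.4 and -0.44. Sftpa1 fell by 0.73 (limma, adjusted p = 0.0034) and Sftpb by 0.64 (limma, adjusted p = 0.000284), both surfactant protein genes. With log2 Xist as a covariate, the lists of chaperones, coregulators, steroid supply, repressed targets and lung maturation together gave 0 calls in limma, with 9 genes lower and 5 higher at an unadjusted p of 0.05.

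**Figure D3:**
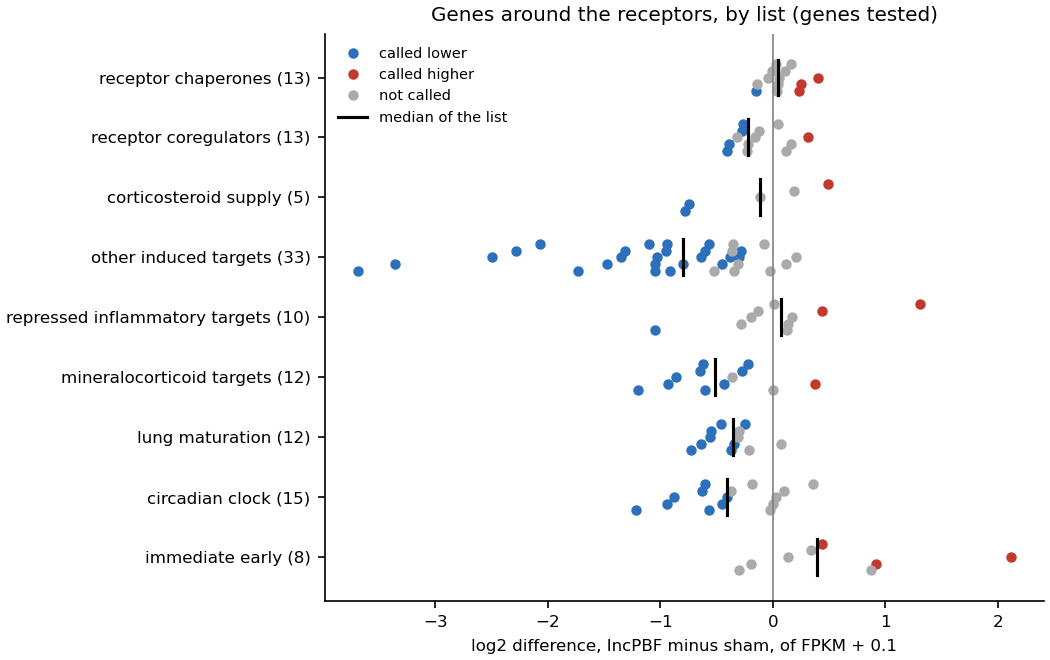
Log2 difference of FPKM + 0.1, IncPBF minus sham (horizontal axis), of each gene tested in 9 lists (rows, with the number of genes tested); blue and red points were called lower and higher by limma at an adjusted p of 0.05, grey points were not called, and the black bar is the list's median. The median is -0.80 in the list of other induced targets and 0.05 in that of the receptor chaperones.

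Of the 14 cell type marker lists 6 held a called gene. Over all genes tested 16.2% were called lower and 16.1% higher, shares of single genes that give no background for a count of lists. Some lists had few genes tested, with 0 for liver, 1 each for thymus and adipose tissue and 2 for innate T and NK cells. All 5 markers of alveolar type 2 cells, and Aqp5 of the type 1 list, are also on the list of lung maturation genes. All 5 markers of alveolar type 1 cells were called lower, with a summed level of 864 to 904 FPKM in IncPBF and 1094 to 1428 FPKM in sham lungs. Markers of alveolar type 2 cells were called lower in 3 of 5 cases (10825 to 13422 and 13093 to 16334 FPKM), and those of endothelial cells likewise in 3 of 5 (892 to 948 and 926 to 1201 FPKM). In fibroblasts and smooth muscle 1 of 5 fell and 3 rose, with summed levels of 619 to 922 and 464 to 596 FPKM. Red cell markers fell in 3 of 5 cases, with summed levels of 251 to 1927 and 1458 to 2442 FPKM. In adipose tissue 1 marker of 5 was tested and fell, at summed levels of 1.17 to 2.69 and 1.83 to 4.07 FPKM, with Lep listed at 0 in all lungs. In the other 8 of the 14 marker lists (ciliated cells, macrophages, lymphocytes, innate T and NK cells, neutrophils, thymus, heart muscle and liver) no gene was called at this threshold, and at an unadjusted p of 0.05 limma gave 2 macrophage genes and 1 lymphocyte gene, all lower. When log2 Xist was a covariate, limma called 0 markers of alveolar type 1, alveolar type 2, endothelial, red and fat cells, with 3, 2, 3, 5 and 1 lower at an unadjusted p of 0.05, and 1 of fibroblasts and smooth muscle (lower). With IncPBF lung 1 as the one IncPBF lung, 4 red cell markers were called lower and 0 of the alveolar type 1, alveolar type 2, endothelial and fat cell markers, with 1, 2, 1 and 1 lower at an unadjusted p of 0.05. Of the fibroblast and smooth muscle markers 0 were called there, with 1 lower and 1 higher at an unadjusted p of 0.05. The part of cell makeup in the differences of the 9 genes was not tested.

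In the circadian clock list 8 of 15 genes were called lower and 0 higher (limma), beside 16.2% and 16.1% of all genes tested. In limma 1 gene was higher at an unadjusted p of 0.05, and limma-voom called 1 higher. The median log2 difference of the list was -0.41. Nr1d1, a repressor in the clock, fell by 1.22 (limma, adjusted p = 0.000431) and Tef, a clock output factor, by 0.94 (limma, adjusted p = 7.78e-05). Of the 15 clock genes 2 were called lower with log2 Xist as a covariate, and with IncPBF lung 1 as the one IncPBF lung 0 were (limma, with 5 lower at an unadjusted p of 0.05). Corticosterone and many of its targets follow the time of day, and the part of the collection time was not tested. Immediate early genes, which respond within minutes to handling and hypoxia and share stimuli with Sgk1 and Dusp1, rose in 3 of 8 cases and fell in 0 (limma, and 0 at an unadjusted p of 0.05 or by limma-voom). Nr4a1, an orphan nuclear receptor, rose by 2.12 (limma, adjusted p = 0.0036) and Atf3, a stress-induced factor, by 0.92 (limma, adjusted p = 0.00266). With log2 Xist as a covariate and with IncPBF lung 1 as the one IncPBF lung, 0 of the 8 were called (limma, with 1 and 2 higher at an unadjusted p of 0.05). Their part in the level of Sgk1 was not tested.

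Lungs of one group also differed among themselves, and this does not use the contrast by which the genes were chosen. In the sham group sham lung 3 was the lowest in 5 of the 9 genes and sham lung 4 in 3, while sham lung 1 was the highest in 4, sham lung 5 in 3 and sham lung 2 in 2. In the IncPBF group lungs 3 and 4 were the lowest in 4 genes each, and lung 5 was the highest in 6. The library size by which the authors divided, as a multiple of the fragments on genes, was 1.032 in sham lung 3, 1.018 in sham lung 4 and 0.958 to 0.983 in the remaining sham lungs. In the IncPBF group this multiple was 1.072 in lung 4, 1.022 in lung 5 and 1.046 to 1.057 in the remaining lungs. Its part was not tested.

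With each group's mean removed, the correlation of the other 8 genes with Fkbp5 across the 10 lungs was weak to moderate and in no case passed the test. Pearson's r was highest for Klf9 at 0.55 (exact permutation within groups, two-sided p = 0.127, adjusted p = 0.508), with Spearman's rho of 0.55 (exact permutation p = 0.145, adjusted p = 0.385). For Zbtb16 r was 0.46 (exact permutation p = 0.0849, adjusted p = 0.508) and rho 0.60 (exact permutation p = 0.109, adjusted p = 0.385). Tsc22d3 had an r of 0.45 (exact permutation p = 0.262, adjusted p = 0.555) and a rho of 0.50 (exact permutation p = 0.192, adjusted p = 0.385). Errfi1, Nr3c1, Sgk1, Hsd11b1 and Nr3c2 had r of 0.46, 0.38, 0.24, 0.06 and 0.04, with exact permutation p from 0.277 to 0.888 and adjusted p from 0.555 to 0.888. Their rho were 0.45, 0.60, -0.20, 0.10 and 0.00, with exact permutation p from 0.109 to 1 and adjusted p from 0.385 to 1. Without the 2 lungs farthest from the median of Fkbp5, sham lungs 4 and 5, r was 0.25 for Klf9, 0.39 for Zbtb16, -0.16 for Tsc22d3, 0.18 for Errfi1, 0.19 for Nr3c1, -0.37 for Sgk1, -0.23 for Hsd11b1 and 0.09 for Nr3c2. These lungs were the lowest and the highest of the sham group in Fkbp5, and without them r was lower for every gene other than Nr3c2.

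**Figure D4:**
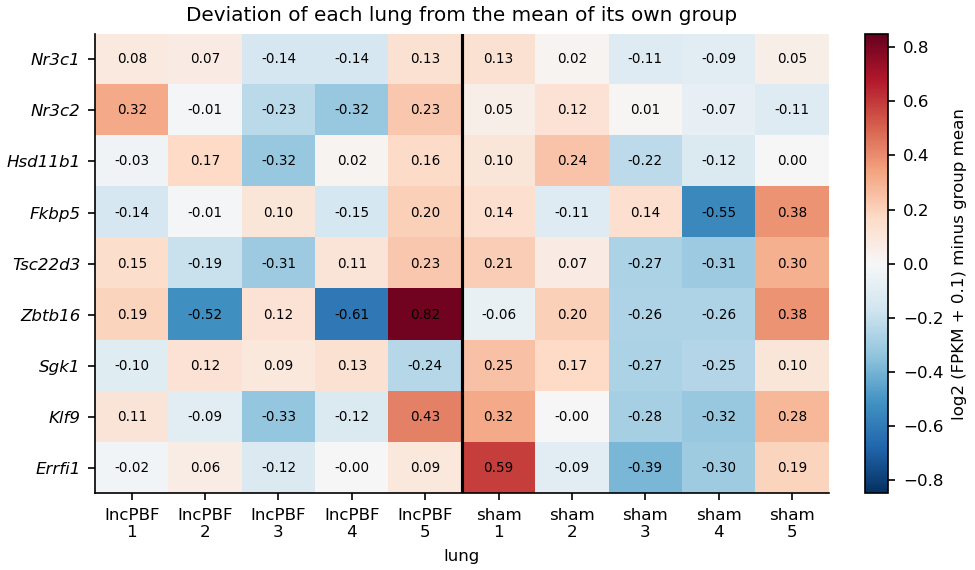
Deviation of each lung (columns) from the mean of its own group in log2(FPKM + 0.1), for the 9 genes (rows), printed in each cell and coloured from blue (lower) to red (higher). Sham lungs 3 and 4 are below the sham mean in 7 and 9 of the genes.

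The genes whose deviations within the groups were most like those of Fkbp5, among 13533 other genes with a mean of at least 1 FPKM and over the 10 lungs, were 6820431F20Rik (r = 0.970), Garem1 (0.937), Smurf1 (0.912), March9 (0.911) and Robo1 (0.905). These values are a description without a test, and they share the same lungs and library sizes. On the same measure Klf9 stood at place 1439, Zbtb16 at 2208, Errfi1 at 2210, Tsc22d3 at 2309, Nr3c1 at 3023, Sgk1 at 4384, Hsd11b1 at 6389 and Nr3c2 at 6615. For the 33 genes ranked from the list of other induced targets r ran from -0.416 (Bcl6) to 0.860 (Angptl4), with a median of 0.369, and was above 0 in 26 and below 0 in 7.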

How the data were processed

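Total RNA of P14 lungs was sequenced by the authors on an Illumina NovaSeq instrument from NEBNext libraries, after isolation with a column kit in the methods and Trizol in the labels. The authors deposited 1 table of FPKM (fragments per kilobase of gene, scaled to library size) with gene lengths and positions. The submitters' processing notes name Bowtie 0.12.2 and the builds GRCm38, mm10 and hg38. The counting software is not given in the sources used here. Of the 54409 genes also in GENCODE M21 on GRCm38, 98.3% had the same positions, and 7 of the 9 genes studied. The 5 table columns not named sham bear an abbreviation that differs from the titles, and were taken as the IncPBF group without matching single samples. FPKM times length gave whole fragments for 100% of values per lung (tolerance 0.02).

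Genes with a mean of at least 0.5 FPKM (15388) were compared on log2(FPKM + 0.1) with limma 3.58.1 in R 4.3.3 (trend, Benjamini-Hochberg threshold 0.05), which understates changes of low genes. On simulated counts, 189 of 200 changed genes were recovered with 6 false calls. The simulation used the same dispersion for every gene and no difference in sex or cell makeup. It therefore does not give the error rate of the comparison of these lungs. Correlations used exact permutations within groups (14400 arrangements). Python 3.11.15, pandas 2.3.3, SciPy 1.17.1 and matplotlib 3.10.9 were used. Alternatives were other pseudocounts, filters and scalings, limma-voom, a replicate block, Xist as a covariate, low-Xist lungs only and single lungs left out.

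The 9 genes and all lists were chosen with earlier results of these data known. Beside the 9 genes, the text names 12 genes fixed by name, the largest called differences of each list (5 per direction among induced targets, 2 elsewhere) and the 5 genes most like Fkbp5. Lep, Xist, Usp2, Aqp5, Cxcl1, Angptl4 and Bcl6 lie outside this rule and were named after their values were seen. Nothing in the sources says that the lungs of a group came from separate litters. The limma p-values set each group difference against the spread among these lungs only. For IncPBF lungs 2 to 5 that difference cannot be told apart from one of sex.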

Additional observations from a re-analysis of the deposited data

Results flagged for a closer look

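In groups of 5 lungs, a lung was singled out when its gap to the nearest other lung was more than 0.71 of the range of the group. Of 86 groups of values examined (43 genes in both groups), 5 met this, where chance gives about 1 in 20, and 0 of the 9 receptor and target genes were among them. Hif3a measured 1.15 FPKM in IncPBF lung 5 and 0.419 to 0.596 in the other IncPBF lungs. Pdk4 measured 3.35 FPKM in the same lung and 1.91 to 2.3 in the others. IncPBF lung 5 was also the highest of its group in 6 of the 9 genes. Fam107a measured 0.448 FPKM in IncPBF lung 3 and 0.668 to 0.731 in the others. Dusp1 measured 102 FPKM in IncPBF lung 2 and 49 to 63.8 in the others. Serpina6 measured 0.211 FPKM in sham lung 3 and 0 in the other sham lungs. The sources of these deviations were not tested.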

How the results depend on the processing

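Hsd11b1, Fkbp5, Tsc22d3, Zbtb16, Klf9 and Errfi1 stayed lower in IncPBF in all 21 alternatives, and Sgk1 stayed higher. The ranges without single lungs were -1.18 to -1.04 for Hsd11b1, -2.77 to -2.54 for Fkbp5, -1.70 to -1.55 for Tsc22d3, -5.48 to -5.12 for Zbtb16, -1.50 to -1.31 for Klf9, -0.66 to -0.42 for Errfi1 and 0.26 to 0.39 for Sgk1. Nr3c1 ranged from -0.04 to 0.02 and Nr3c2 from -0.17 to -0.01. A pseudocount of 1 gave -2.15 for Fkbp5 and -4.23 for Zbtb16, by construction smaller. Nr3c2 was 0.24 both with log2 Xist as a covariate and in low-Xist lungs only.

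Over all genes, log2 Xist as a covariate left 413 lower and 328 higher calls, and low-Xist lungs only left 112 and 42, where the lone IncPBF lung is assumed to vary like the others. Without single lungs, 1919 to 2699 were lower and 1950 to 2535 higher. With log2 Xist as a covariate, 14 induced and 4 mineralocorticoid targets were called lower, and 0 genes in either direction in the lists of chaperones, coregulators, steroid supply, repressed targets and lung maturation, nor any mineralocorticoid target higher (0). In low-Xist lungs only, 5 induced and 2 mineralocorticoid targets were called lower and 0 genes in all those other counts. Fewer lungs or fewer residual degrees of freedom are part of both settings by construction.

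Lower calls among chaperones were 0 without a filter, with an equal total per lung, with the replicate block and with limma-voom, and higher calls 5 with an equal total. Lower calls among coregulators were 2 without a filter and with an equal total. Higher calls there were 3 with an equal total and 2 with a pseudocount of 0.01, a mean of at least 1 FPKM, median centring or quantile normalization. Lower calls among repressed targets were 0 at a mean of at least 1 FPKM, a filter that removes Mmp13 by construction, and 2 with quantile normalization, the replicate block or limma-voom. The cause of the remaining shifts was not tested. Without single lungs, chaperones gave 0 to 1 lower and 3 to 4 higher, coregulators 2 to 6 and 1 to 2, steroid supply 2 and 1, induced targets 21 to 25 and 0, repressed targets 1 to 2 and 1 to 2, mineralocorticoid targets 7 to 9 and 1, and lung maturation 6 to 9 and 0.

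Over all genes tested, lungs with the same number in both groups did not deviate together (r from -0.0675 to 0.0854). This does not speak for the 9 genes. With the replicate block the standard error was 0.04 in place of 0.07 for Nr3c1 and 0.06 in place of 0.11 for Hsd11b1. It was 0.11 in place of 0.15 for Fkbp5, 0.09 in place of 0.14 for Tsc22d3 and 0.15 in both settings for Nr3c2. Whether the numbers mark a shared batch or order was not tested. The replicate block gave 4872 calls over all genes in place of 4970. Near 0, signs turned: Fkbp4 was -0.02 with the Xist covariate and -0.01 in low-Xist lungs only, Hsp90aa1 -0.07 in both and -0.00 to 0.09 without single lungs (lowest without sham lung 5), and Hsp90ab1 0.04 with an equal total and 0.05 with quantile normalization. The correlation of Nr3c2 with Fkbp5 was -0.05 on FPKM and -0.12 to 0.21 without single lungs, a setting added after the data were seen. The other ranges were -0.24 to 0.21 for Hsd11b1, -0.26 to 0.45 for Sgk1, 0.21 to 0.50 for Nr3c1, 0.12 to 0.60 for Tsc22d3, 0.36 to 0.53 for Zbtb16, 0.37 to 0.69 for Klf9 and 0.24 to 0.69 for Errfi1, and none passed the test. Of the 9 genes, Zbtb16 in IncPBF lungs (40 to 149 fragments) and Nr3c2 (89 to 163) had the fewest fragments, and some list genes, such as Mmp13, Il1b, Fam107a and Serpina6, had fewer still.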
